A study of Mus musculus with 60 samples.

Results

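Mgp, the gene of matrix Gla protein, and 9 genes of the bone morphogenetic protein (BMP) pathway were examined in single breast cancer cells recovered from mouse bone. The 10 genes, picked by name as an extracellular BMP inhibitor (Mgp), ligands (Bmp2, Bmp4, Bmp7), receptors (Bmpr1a, Bmpr2) and targets (Id1, Id2, Id3, Smad6), are 10 of 47729 mouse genes in the count table. The PyMT-Bo1 line, from a mouse mammary tumor, carried here firefly luciferase, eGFP, mApple and the surface tag Thy1.1. The cells were stained with the membrane dye DiD, which is diluted as a cell divides, and injected intracardially into wild-type C57BL6 females of 8 to 10 weeks. After 11 days the femurs and tibias of 5 mice were pooled, and Thy1.1+ CD45- live cells were sorted at 1 cell per well as DiD+ (high dye, called dormant) or DiD- (low dye, called proliferative). Of 48 cells sorted per group, 32 DiD+ and 28 DiD- cells passed the study's quality control and were used here. Both groups therefore share the line, the dye, the host and the pool of bones.

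BMPs are secreted ligands that bind type I and type II receptor kinases. The type I receptor then phosphorylates Smad1, Smad5 or Smad9, which enter the nucleus with Smad4. The Id genes are among the best known early targets: Id proteins pair with bHLH transcription factors and keep them off DNA. Matrix Gla protein is a secreted protein whose glutamate residues are carboxylated with the help of vitamin K. It is known for preventing calcification of cartilage and vessels and for binding BMP2 and BMP4. In bone, BMPs are known for driving osteoblast formation.

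No mouse is named for a cell, so each group counted as 1 sample. No test was possible, and no difference in these counts has a replicate check. Values are estimated counts, summed in each group and divided by all counts on mouse genes, times 1000000 (CPM). The log2 ratio is that of DiD+ over DiD- after adding 1 CPM to both. Intervals are exact at 95%, by the Poisson distribution for sums and by Clopper-Pearson for shares. Reads without molecular identifiers are not separate molecules, and these intervals and the limits for counts of 0 take in counting error alone, not the spread between cells or mice.

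Cells held 2276789 to 7794219 counts on mouse genes, and the sums were 146074944 counts in DiD+ and 119490098 in DiD- cells. Of 8 epithelial markers set for the tumor label, 3 had a count in DiD+ cells and 2 did in DiD- cells. The keratins Krt8 and Krt18 carried the list, whose sum had a median of 2201 CPM in DiD+ (266.2 to 6342) and 4627 CPM in DiD- cells (356.4 to 12020), while Krt7, Krt19, Epcam, Cldn3 and Cldn4 were at 0 in all cells. In 11 wells (8 DiD+ and 3 DiD-) at least 50% of the markers of a host cell type reached 10 counts. These were DiD+ cells 19, 21, 24, 30, 37 and 88 for macrophages (19, 30 and 37 also for erythroid cells), 29 for megakaryocytes and 31 for mesenchymal stroma, and DiD- cells 44 and 86 for erythroid cells and 84 for macrophages, neutrophils and erythroid cells. The amounts differed widely. Macrophage markers summed to 19336 CPM in cell 24, but megakaryocyte markers to 29.48 CPM in cell 29, with 4 of 5 present. DiD+ cell 42, which was not called, had 45.48 CPM of megakaryocyte markers with 1 of 5 present. The call of cell 29 thus rests on little RNA. DiD+ cell 30 had no count on any of 4 transgenes. The wells are called host-marker wells below, and values without them are given beside the results. The stromal markers include Thy1, the gene of the line's Thy1.1 tag, so reads of the tag could enter the call of cell 31. The part of host RNA in the results was not tested.

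The sequence below is the stretch of Mgp that the study's own qPCR primers amplify, shown because it lies within the coding sequence and crosses exon boundaries. It was read from transcript Mgp-201 (617 bases, coding sequence from base 94 to 405), where the product covers bases 145 to 253, and capitals mark the bases bound by the primers.
Mgp: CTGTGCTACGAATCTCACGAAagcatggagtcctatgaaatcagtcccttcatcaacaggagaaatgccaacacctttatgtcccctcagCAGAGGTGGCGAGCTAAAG
The product of 109 bases takes 10 bases from exon 1 (chr6:136875670-136875823), 33 from exon 2 (chr6:136874267-136874299) and 66 from exon 3 (chr6:136873167-136873242), on the minus strand of GRCm38. The probe of the assay matched bases 205 to 231 of the transcript. By qRT-PCR the study reported Mgp higher in DiD+ than in DiD- cells sorted from bone.

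For the Id family, the 60 coding bases of Id3 that were most alike in the other Id genes are shown, since near-identical genes can share reads. Capitals mark the 42 positions at which all 4 genes hold the same base.
Id1: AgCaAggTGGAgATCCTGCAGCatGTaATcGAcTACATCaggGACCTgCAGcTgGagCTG
Id2: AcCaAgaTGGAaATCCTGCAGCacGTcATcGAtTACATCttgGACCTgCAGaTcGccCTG
Id3: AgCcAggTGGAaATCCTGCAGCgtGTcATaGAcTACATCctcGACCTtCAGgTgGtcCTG
Id4: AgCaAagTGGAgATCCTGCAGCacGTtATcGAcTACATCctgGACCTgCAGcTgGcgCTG
The stretches are coding bases 247 to 306 of Id1 (chr2:152736587-152736646, plus strand), 178 to 237 of Id2 (chr12:25095774-25095833, minus), 193 to 252 of Id3 (chr4:136144071-136144130, plus) and 265 to 324 of Id4 (chr13:48261762-48261821, plus), in GRCm38 with GENCODE M21. Id1, Id2 and Id4 equalled Id3 at 48, 47 and 48 of the 60 bases. The longest exact run that any pair of their transcripts shared was 19 bases (Id2 and Id3), and for Id1 and Id2 it was 11. Estimated counts of Id1, Id2 and Id3 were whole numbers in every cell.

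Of the 10 genes, 9 reached 1 CPM in a group, and 5 of them, Mgp, Bmp2, Bmpr2, Id2 and Id3, were at least 2-fold higher in DiD+ cells. None was at least 2-fold lower. Among all 12432 genes at 1 CPM or more, 12.1% were at least 2-fold higher in DiD+ cells and 4.86% at least 2-fold lower. The median log2 ratio of the 9 genes was 1.31, against 0.04 over all genes. Without the host-marker wells the 5 genes were still past 2-fold higher, against 10.5% of all genes, and Bmp4 was past 2-fold lower, against 6.05%, its DiD+ level being 0 so that the ratio hangs on the 1 CPM added. The plot of each gene by cell shows that the groups overlapped for every gene.

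**Figure D1:**
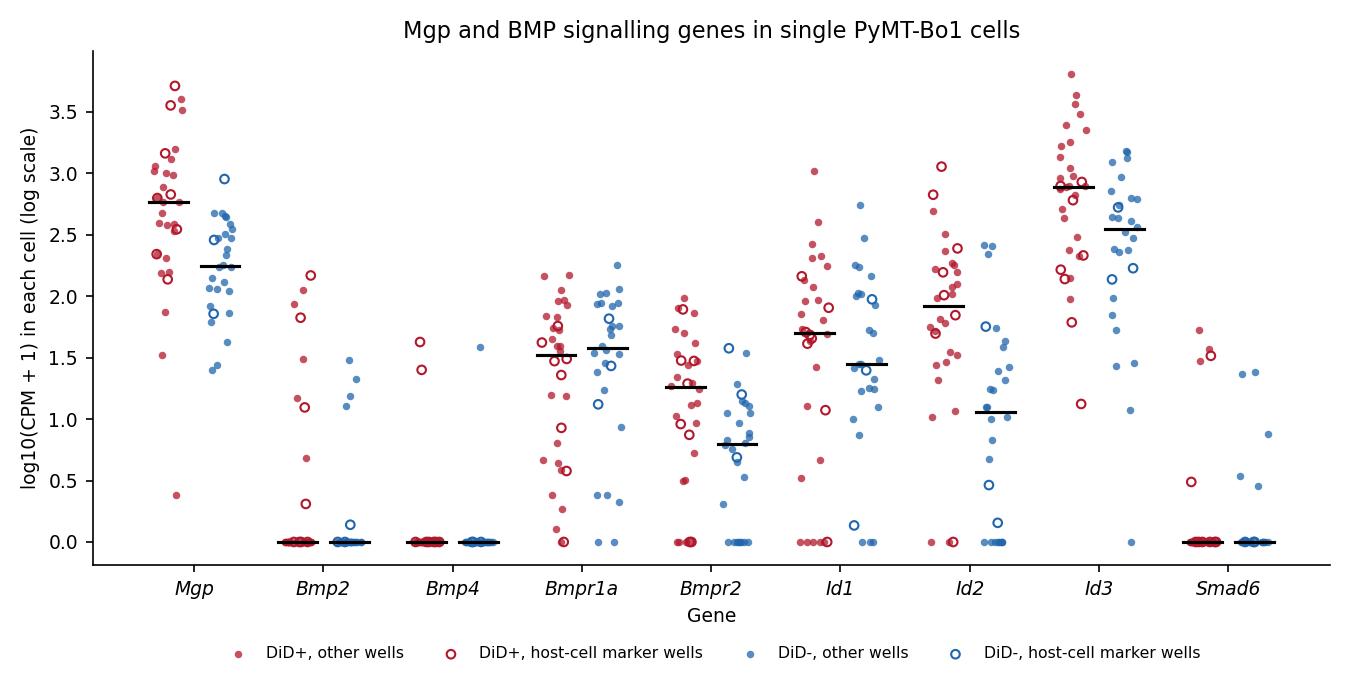
Each point is a cell, with log10(CPM + 1) on the vertical axis and the 9 genes that had a count on the horizontal axis. Red points are 32 DiD+ cells and blue points 28 DiD- cells, open circles are host-marker wells and black bars are medians. Mgp and Id3 were present in nearly every cell, while Bmp2, Bmp4 and Smad6 had medians at 0 in both groups.

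Mgp (ENSMUSG00000030218, chromosome 6, 136872435 to 136875823, 4 exons) had a count in all 60 cells. In DiD+ cells its level ran from 1.426 CPM in cell 81 over a median of 583.2 to 5151 CPM in cell 29. In DiD- cells the lowest was 24.33 CPM in cell 39, the median 175.7 and the highest 898.5 CPM in cell 44. The ranges overlapped, since 26 of 32 DiD+ cells lay above the DiD- median and 1 of 28 DiD- cells above the DiD+ median. A group of 11 DiD+ cells was higher than any DiD- cell.

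Summed over cells, Mgp was at 965.6 CPM in DiD+ (960.5 to 970.6) and 230.5 CPM in DiD- cells (227.8 to 233.3), 4.19-fold apart, with log2 ratio 2.06. Whichever single cell was left out, the ratio stayed between 1.88 (without DiD+ cell 29) and 2.16 (without DiD- cell 44). Both are host-marker wells, as is DiD+ cell 21 at 3575 CPM, while cells 41 (4045 CPM) and 68 (3284 CPM) are not. Without all 11 host-marker wells Mgp was at 820.3 and 219.9 CPM, or 1.89 as a log2 ratio. The standard deviation over cells was 1255 CPM around a mean of 998.1 in DiD+ (n = 32) and 193 CPM around 237.4 in DiD- cells (n = 28). DiD+ cells thus spread more widely also relative to their mean, with coefficients of variation of 1.26 and 0.81.

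Mgp is known from cartilage, vessel walls and stroma, so markers of those cells were read beside it. Of 8 chondrocyte markers, Acan, Col2a1, Cnmd, Matn3, Hapln1 and Col9a1 were at 0 in every cell, and the summed list was 0.2712 to 1192 CPM in DiD+ and 17.9 to 720.8 CPM in DiD- cells. Comp was at 0 in DiD- cells as well, so Sox9 alone made up their sum. The 7 smooth muscle and pericyte markers summed to at most 46.3 CPM in a DiD+ and 32.64 CPM in a DiD- cell, with Cnn1 at 0 throughout. Kdr, Tie1 and Esam of the 8 endothelial markers had no count in any cell, and the list reached at most 73.47 and 116.6 CPM. The 11 mesenchymal stromal markers were at a median of 209.3 CPM (17.34 to 3878) in DiD+ and 186.2 CPM (21.17 to 521.5) in DiD- cells. They include Thy1, the gene whose Thy1.1 form the line carried as its tag. Reads of the tag could count as Thy1, and their part in these sums was not tested. The highest stromal sum was that of DiD+ cell 41, also second in Mgp, where 4 of 11 markers reached 10 counts. DiD+ cells 31 (1002 CPM), 68 (712.7 CPM) and 82 (670.8 CPM) also lay above every DiD- cell in the stromal sum and in Mgp. Lum and Adipoq were at 0 in all cells, Lepr in DiD+ and Col1a1 in DiD- cells. The 7 osteoblast markers had medians of 0 in both groups, with up to 814.5 CPM in a DiD+ (cell 70) and 61.77 CPM in a DiD- cell (45). Cells 29 and 31, which held Mgp, Bmp2 and Bmp4, had osteoblast sums of 217 and 220.5 CPM. Ibsp and Sp7 were at 0 in all cells, and Bglap and Dmp1 in DiD- cells. The tumor keratin list was lower in several DiD+ cells with much Mgp, at 368.6 CPM in cell 41, 329.5 in cell 68 and 266.2 CPM in cell 31, but at 3196 CPM in cell 21 and 6342 in cell 67. The part of these markers in the Mgp difference was not tested.

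Among the ligands, Bmp2 was the gene with the widest ratio, from few cells. Bmp2 (ENSMUSG00000027358, chromosome 2, 133552159 to 133562885), a ligand known to induce bone, was detected in 9 of 32 DiD+ cells (28.1%, 13.7% to 46.7%) and 5 of 28 DiD- cells (17.9%, 6.06% to 36.9%). These intervals overlap. The DiD+ cells with Bmp2 were cell 29 at 146.6 CPM, cell 82 at 112.4, cell 41 at 85.43, cell 31 at 65.88, cell 87 at 30.08, cell 69 at 13.95, cell 19 at 11.45, cell 36 at 3.806 and cell 37 at 1.04 CPM. In DiD- cells it was at 29.28 CPM in cell 40, 20.28 in cell 72, 14.35 in cell 66, 11.81 in cell 78 and 0.381 CPM in cell 44. All other cells were at 0, and 5 DiD+ cells lay above every DiD- cell.

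The sums for Bmp2 were 15.7 CPM (15.06 to 16.35) and 2.787 CPM (2.496 to 3.103), or 2.14 as a log2 ratio. Cell 82 held 38.2% of the DiD+ counts and the 3 cells with most counts 81.9%. The ratio was 1.57 without DiD+ cell 82, 2.52 without DiD- cell 40 and 1.85 without the host-marker wells.

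Bmp4 (ENSMUSG00000021835, chromosome 14, 46383520 to 46390669), a close relative of Bmp2, was found in 3 cells. It was at 41.42 CPM in DiD+ cell 29, 24.16 CPM in DiD+ cell 31 and 37.28 CPM in DiD- cell 34. Both DiD+ cells are host-marker wells, and without these wells no DiD+ count remained. The sums were 1.492 CPM (1.301 to 1.704) and 1.515 CPM (1.302 to 1.752), or -0.01 as a log2 ratio, which went to -0.86 without cell 29 and 1.32 without cell 34. Its direction therefore rested on single cells. Bmp7 (ENSMUSG00000008999, chromosome 2), another bone-inducing ligand, had 0 counts in all 60 cells, which allows up to 0.0205 CPM in the DiD+ sum and 0.0251 CPM in the DiD- sum (3 counts). At least 10 counts of any of the 3 ligands were present in 8 DiD+ and 5 DiD- cells.

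The receptors were measured in most cells, and they differed from each other. Bmpr1a (ENSMUSG00000021796, chromosome 14, 34410734 to 34503341), a type I receptor, was detected in 30 DiD+ and 26 DiD- cells. Its level per cell was 0 to 149.1 CPM with a median of 32.39 in DiD+ cells and 0 to 177.7 CPM with a median of 36.84 in DiD- cells. The groups overlapped over nearly the whole range. Its sums were 40.95 CPM (39.92 to 42) and 47.25 CPM (46.03 to 48.5), or -0.20 as a log2 ratio with a range of -0.31 to -0.05 over all omissions of a cell and -0.05 without the host-marker wells. Whether counting used the strand is not given in the sources used here, and 290 exon bases of Bmpr1a overlap Gm17110 on the other strand, which had 8 and 7 counts in the groups.

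Bmpr2 (ENSMUSG00000067336, chromosome 1, 59763400 to 59879014), the type II receptor that activates Bmpr1a, had a count in 26 of 32 DiD+ cells (81.2%, 63.6% to 92.8%) and 20 of 28 DiD- cells (71.4%, 51.3% to 86.8%). In DiD+ cells its level was 0 to 96.01 CPM with a median of 17.1, and in DiD- cells 0 to 36.71 CPM with a median of 5.269. DiD+ cells were mostly the higher ones, with 23 of 32 above the DiD- median and 7 above every DiD- cell. The sums were 22.77 CPM (22 to 23.56) and 7.499 CPM (7.016 to 8.006), or 1.48 as a log2 ratio. Leaving out a cell gave 1.35 (without DiD+ cell 19) to 1.68 (without DiD- cell 77), and leaving out the host-marker wells gave 1.63. Scaling each cell by its spike-ins gave 0.92, under 2-fold, and moved the median over all genes from 0.04 to -0.34. Counts of both receptors were present in 24 DiD+ and 19 DiD- cells.

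The Id targets were not alike between the groups: Id2 and Id3 were more than 2-fold higher in DiD+ cells and Id1 was not. Id3 (ENSMUSG00000007872, chromosome 4, 136143497 to 136145755) had a count in all 32 DiD+ cells and in 27 of 28 DiD- cells, cell 74 being the exception. Its level per cell was 12.28 CPM (cell 24) to 6421 CPM (cell 41) with a median of 780.9 in DiD+ cells, and 0 to 1530 CPM (cell 89) with a median of 349.6 in DiD- cells. Of the DiD+ cells, 22 lay above the DiD- median and 8 above all DiD- cells, while 5 DiD- cells lay above the DiD+ median. The sums were 1198 CPM (1193 to 1204) and 481 CPM (477.1 to 485), 2.49-fold apart, with log2 ratio 1.31. It moved to 1.07 without DiD+ cell 41, or to 1.46 if DiD- cell 26 was omitted. The 2 lowest DiD+ cells, 24 and 30, are host-marker wells, and without these wells the ratio was 1.54.

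Id2 (ENSMUSG00000020644, chromosome 12, 25093799 to 25097140) had a count in 29 of 32 DiD+ cells (90.6%, 75% to 98%) and 20 of 28 DiD- cells (71.4%, 51.3% to 86.8%). Per cell it was 0 to 1134 CPM with a median of 82.7 in DiD+ cells and 0 to 258.7 CPM with a median of 10.48 in DiD- cells. Most DiD+ cells were higher: 28 of 32 lay above the DiD- median and 3 DiD- cells above the DiD+ median. The sums were 163.9 CPM (161.9 to 166) and 40.61 CPM (39.47 to 41.76), or 1.99 as a log2 ratio, which went to 1.60 without DiD+ cell 19 and 2.38 without DiD- cell 26. Its highest values were in host-marker wells, DiD+ cells 19 (1134 CPM) and 37 (669 CPM), both with 13 of 13 macrophage markers. Without these wells the sums were 104.8 and 42.86 CPM, or 1.27 as a log2 ratio.

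Id1 (ENSMUSG00000042745, chromosome 2, 152736251 to 152737410) was detected in 26 DiD+ and 25 DiD- cells. Its level was 0 to 1054 CPM with a median of 49.24 in DiD+ cells and 0 to 553.6 CPM with a median of 27.01 in DiD- cells. The groups overlapped, with 12 DiD- cells above the DiD+ median and 1 DiD+ cell (35) above all DiD- cells. The sums were 106.3 CPM (104.6 to 108) and 80.05 CPM (78.45 to 81.67), or 0.40 as a log2 ratio. Cell 35 alone held 33.6% of the DiD+ counts, and the ratio was -0.13 without it, 0.76 without DiD- cell 45 and 0.56 without the host-marker wells. The direction of Id1 thus turned with 1 cell. Id4, which completes the family and was added after its values were seen, had 25.51 CPM from 18 DiD+ cells, against 31.75 CPM from 23 DiD- cells, or -0.30 as a log2 ratio.

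Smad6 (ENSMUSG00000036867, chromosome 9, 63953076 to 64022059), a BMP target whose product blocks the type I receptor's signal, was found in 5 cells of each group. In DiD+ it was at 51.8 CPM in cell 68, 36.15 in cell 87, 31.76 in cell 29, 28.52 in cell 70 and 2.08 CPM in cell 37. In DiD- it was at 23.04 CPM in cell 65, 22.18 in cell 26, 6.605 in cell 79, 2.416 in cell 89 and 1.879 CPM in cell 74. The other cells were at 0, and 4 DiD+ cells were above all DiD- cells. The sums were 3.998 CPM (3.68 to 4.336) and 2.193 CPM (1.935 to 2.475), or 0.65 as a log2 ratio, which ranged from 0.24 (without DiD+ cell 68) to 1.13 (without DiD- cell 26).

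**Figure D2:**
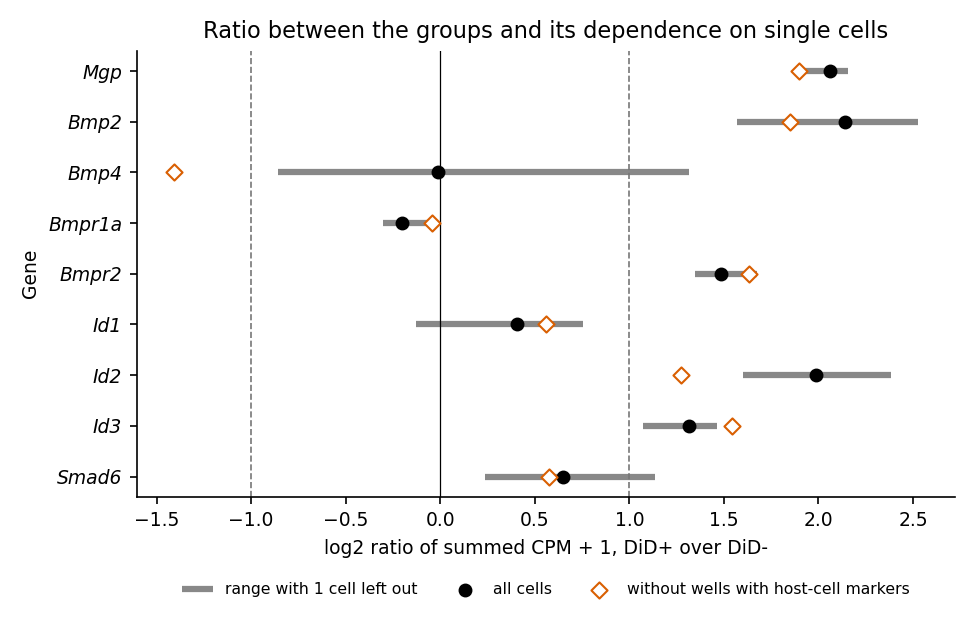
The horizontal axis is the log2 ratio of summed CPM + 1, DiD+ over DiD-, for each gene on the vertical axis. Black points use all cells, grey bars span the ratios with 1 cell left out, orange diamonds leave out 11 host-marker wells and dashed lines mark 2-fold. Mgp, Bmp2, Bmpr2, Id2 and Id3 stay to the right of the upper 2-fold line, and the bars of Bmp4 and Id1 cross 0.

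Levels of different genes were compared per transcript length, in TPM of the summed counts (scaled like CPM after dividing by transcript length). In DiD+ cells the order was Mgp at 2751 TPM, Id3 at 1648, Id1 at 161, Id2 at 146.4, Bmpr1a at 12.09, Bmp2 at 7.762, Bmpr2 at 3.103, Smad6 at 2.366 and Bmp4 at 1.271 TPM. In DiD- cells Id3 at 692.5 TPM and Mgp at 687.4 TPM were close, followed by Id1 at 127 and Id2 at 37.94 TPM. Bmpr1a came next at 14.6 TPM, and Bmp2 (1.442), Smad6 (1.358), Bmp4 (1.35) and Bmpr2 (1.07) lay close together. Mgp ranked 35 among 17270 genes with a count and a length in DiD+ cells and 253 among 16105 in DiD- cells by TPM. Id3 ranked 74 and 246, and Bmpr2 9533 and 11003. The order of neighbours has no replicate error, and with the wide spread between cells Id1 and Id2 in DiD+ cells cannot be ordered.

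The genes also differed in how they went together across the cells of a group, given here as Spearman's rho of log2(CPM + 1) over 32 DiD+ or 28 DiD- cells. These are descriptions without a test, and cells of a group share their pool of mice. Id2 and Id3 went together in both groups, with a rho of 0.52 in DiD+ and 0.52 in DiD- cells, and of 0.72 and 0.49 without the host-marker wells. Id1 and Id3 had 0.42 and 0.33. All 3 Id genes had a count in 24 of 32 DiD+ and 18 of 28 DiD- cells. With the 3 Id genes Mgp had lower values in DiD+ cells. Its rho with Id3 was -0.16 in DiD+ and 0.24 in DiD- cells, with Id2 -0.28 and 0.24, and with Id1 -0.04 and 0.37. Among the genes found in few cells, the rho of Mgp with Bmp4 was 0.37 in DiD+ and 0.23 in DiD- cells. It was 0.25 and -0.06 with Bmp2, and 0.21 and 0.24 with Smad6. Without the host-marker wells the DiD+ values were 0.11 for Bmp2 and 0.09 for Smad6, and Bmp4 had no DiD+ count left. Bmpr2 and Id2 had a rho of 0.58 among DiD- and 0.09 among DiD+ cells. The difference between the groups was not tested.

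**Figure D3:**
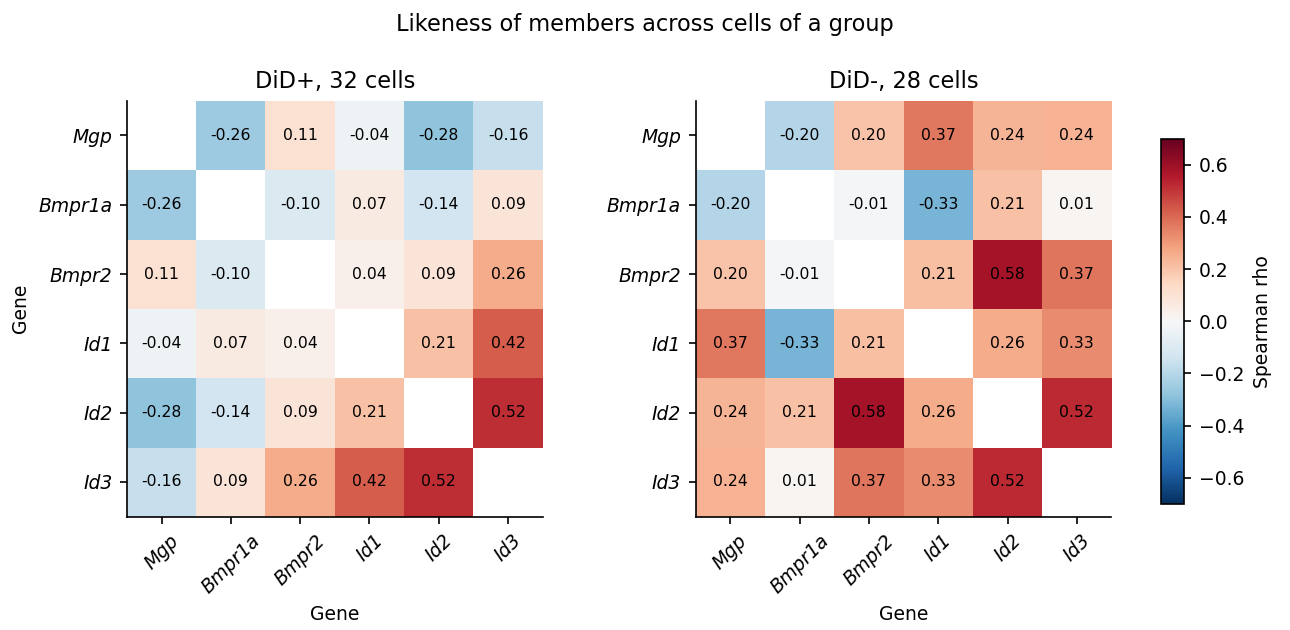
Each square gives Spearman's rho (colour scale) between the genes on its axes across the cells of a group, 32 DiD+ cells on the left and 28 DiD- cells on the right. The pairs of Id2 with Id3 stand at 0.52 in both panels, and in DiD+ cells the row of Mgp is at or below 0.11 with the other 5 genes drawn (Bmpr1a, Bmpr2, Id1, Id2 and Id3).

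Genes most like 4 of the members were ranked by the mean of the rho within each group, over 7456 genes with a count in at least 30 cells and at least 10 CPM. For Mgp they were Pcolce, which enhances procollagen processing (0.57 in DiD+ and 0.64 in DiD- cells), Crtap of the collagen prolyl hydroxylation complex (0.54 and 0.58), Itm2b (0.58 and 0.51), the homeobox gene Prrx2 (0.64 and 0.41) and Spp1, the gene of osteopontin (0.50 and 0.54). Of these, Itm2b and Spp1 were also more than 2-fold higher in DiD+ cells, with log2 ratios of 1.08 and 1.28, while Pcolce had 0.34 and Crtap 0.07. Id2 was most like Id3, whose mean of 0.52 was the highest among the 7456 genes. Id3 was most like the nuclear receptor gene Nr4a2 (0.62 and 0.55), followed by Sp3, Aldh3b1, Id2 and Rbbp9. Id1 was most like Hes1 (0.44 and 0.53), a bHLH repressor gene, with 89.37 CPM in DiD+ against 92.27 CPM in DiD- cells. The top of 7456 genes ranked over few cells can have a high rho without any link between the genes. How high unrelated genes would rank was not tested.

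Cell cycle genes differed between the groups and were read beside the members. The summed CPM of S and G2/M phase genes had a median of 2511 in DiD+ (320.5 to 21204) and 9783 in DiD- cells (965.7 to 16542). Within DiD+ cells Mgp and this sum had a rho of -0.46 (n = 32), or -0.42 without the host-marker wells, and within DiD- cells -0.12 (n = 28). Among DiD+ cells, cell 41 was at 4045 CPM of Mgp and 370.6 CPM of cycle genes, while cell 81 was at 1.426 and 18562 CPM and cell 42 at 32.04 and 12832 CPM. Cells 67 (1038 and 18937 CPM) and 82 (1154 and 12852 CPM) were high in both. For Id3 the rho was -0.08 in both groups, and -0.33 in DiD+ and -0.11 in DiD- cells without the host-marker wells. Smad6 had -0.36 in DiD+ and 0.19 in DiD- cells (-0.28 and 0.20 without these wells), Id2 -0.08 and 0.32, Bmp2 -0.23 and -0.06, Bmpr1a 0.29 and 0.12, and Bmpr2 -0.20 and 0.07. With the cell's total count Mgp had a rho of -0.16 and -0.01, and with its number of genes detected -0.22 and -0.33. The part of cycling in the Mgp difference was not tested.

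**Figure D4:**
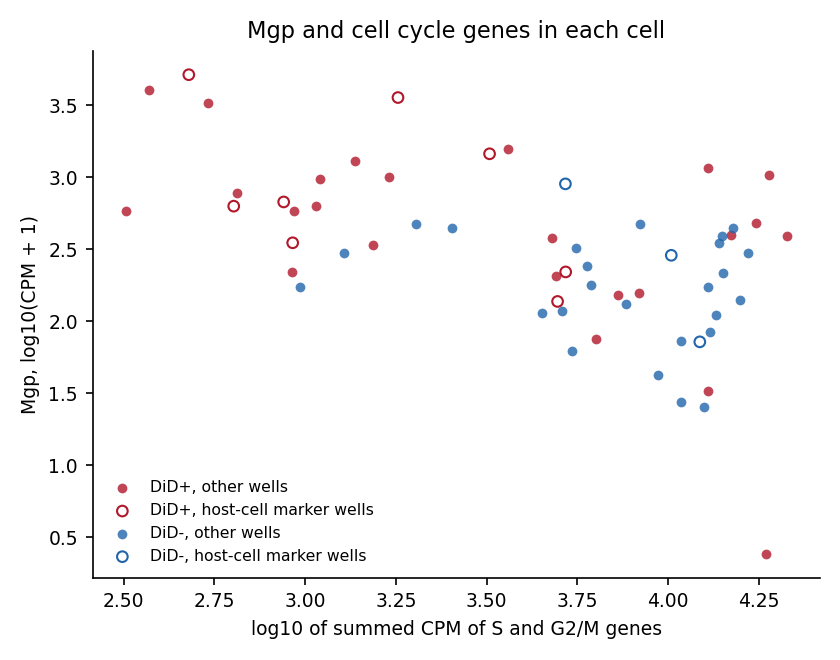
Each point is a cell, with the log10 of its summed CPM of S and G2/M genes on the horizontal axis and log10(CPM + 1) of Mgp on the vertical axis. Red marks DiD+ and blue DiD- cells, with open circles for host-marker wells. DiD+ cells spread over the whole horizontal range, and those with Mgp above the highest DiD- value of 898.5 CPM lie mostly at low cell cycle sums, cells 67 and 82 being exceptions.

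The remaining genes of the pathway were taken from lists by role. Of 63 genes in 5 lists, 41 reached 1 CPM in a group, 14 were at least 2-fold higher in DiD+ cells and none at least 2-fold lower, with a median log2 ratio of 0.55. The 1 CPM added kept some genes of low level within 2-fold, named here after their values were seen. Without it, Msx1 (1.992 against 4.846 CPM) and Rgma (0.4655 against 1.08 CPM) were past 2-fold lower in DiD+ cells. Msx2 (1.047 against 0.4017 CPM) was then past 2-fold higher. Leaving out the 10 members, 9 of 32 genes were at least 2-fold higher, with a median of 0.39. Over all genes the shares were the 12.1% and 4.86% given above and the median 0.04. Without the host-marker wells 11 genes of the lists were higher and 2 lower, with a median of 0.54. Of all genes, 10.5% were then higher and 6.05% lower.

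The inhibitor list held 6 of the 14 genes that were higher. Of its 18 genes, 11 reached 1 CPM, with a median log2 ratio of 1.07, and Mgp was among the 6. Besides Mgp, the highest ratios were those of 3 genes of BMP or activin binders. Chrdl1 had 1 count in all DiD- cells together and 5.47 CPM from 3 DiD+ cells, or 2.68 as a log2 ratio, with 51.1% of its counts in cell 38. This ratio was 1.90 without cell 38 and 3.03 without the host-marker wells. Fst was at 11.21 CPM in 7 DiD+ cells and 1.682 CPM in 2 DiD- cells (log2 ratio 2.19). Bmper was at 5.182 CPM in 7 and 0.6444 CPM in 3 cells (log2 ratio 1.91). DiD+ cell 82 held 35.8% of the Fst and 41.2% of the Bmper counts, and without it the ratios were 1.68 and 1.36. Fstl1 and Chrd, named after their values were seen, had 1.52 and 1.07, and Chrd was under 2-fold at 0.69 without DiD+ cell 41 and 0.98 without the host-marker wells. The other inhibitors at 1 CPM, also named after their values were seen, were under 2-fold apart. They were Crim1 (0.78), Fstl3 (0.31), Twsg1 (0.03), Nbl1 (-0.01) and Bambi (-0.505). Twsg1 was found in 26 DiD+ and 23 DiD- cells. Of these inhibitors Mgp alone had a count in every cell. Nog, the gene of noggin, and Sost, Sostdc1, Chrdl2 and Kcp had 0 counts in both groups.

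Of 13 ligand genes, Bmp2 and Bmp4 were those at 1 CPM, and 10 had 0 counts in all cells. Among 10 receptors and co-receptors, 9 reached 1 CPM, with a median of 0.10. At least 2-fold higher in DiD+ cells were 3, against 12.1% of all genes. Besides Bmpr2 these were Bmpr1b and Acvrl1, each from few cells. The type I receptor gene Bmpr1b was at 2.013 CPM in DiD+ cells and at 0 in DiD- cells, at least 80.2-fold higher with the DiD- level set at its limit of 3 counts over the group's cells. All of its counts were in cell 30, the cell without transgene counts. Acvrl1, another type I receptor gene, was at 3.738 CPM in 3 and 1.339 CPM in 1 cell, or 1.02 as a log2 ratio, which was 0.07 without DiD+ cell 37 and turned to -1.30 without the host-marker wells. Bmpr2 was then the 1 gene of this list past 2-fold higher.

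The Smads and their regulators lay closer together. Of 11 genes, 10 reached 1 CPM, with a median of 0.60. At least 2-fold higher in DiD+ cells was 1, against 12.1% of all genes. That gene was Smurf2, an E3 ubiquitin ligase of the pathway, with 27.37 CPM from 19 DiD+ cells against 12.37 CPM from 20 DiD- cells, or 1.08 as a log2 ratio, which went to 0.79 without DiD+ cell 69. Its median per cell went the other way, being 1.017 CPM for DiD+ but 9.227 CPM for DiD- cells. The signal transducers, named after their values were seen, were at log2 ratios of -0.05 (Smad1), -0.34 (Smad5) and -0.36 (Smad4), and Smad9 had 0 counts. Of 16 targets, 12 reached 1 CPM, with a median of 0.47, and 3 were at least 2-fold higher, against 12.1% of all genes. Beside Id2 and Id3 this was Hey1, a bHLH repressor gene, at 1.527 CPM in 2 DiD+ cells and 0 in DiD- cells, at least 60.8-fold higher by the same limit. Of its counts, 69.5% were in cell 41, and without that cell its log2 ratio went from 1.34 to 0.57, under 2-fold.

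**Figure D5:**
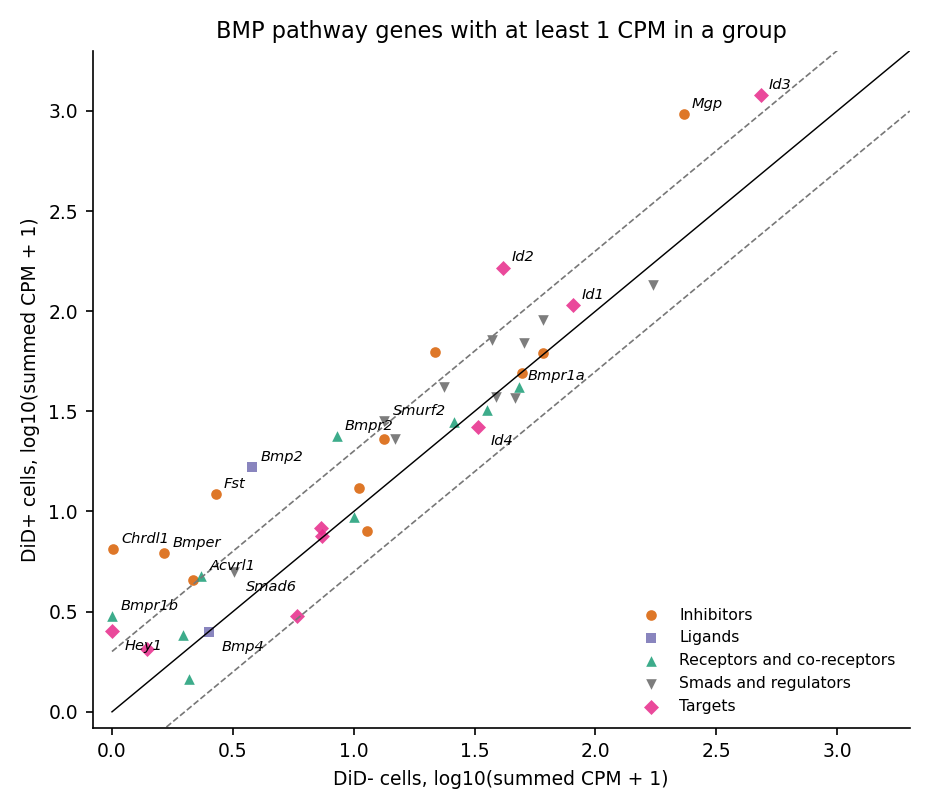
Each point is a BMP pathway gene with at least 1 CPM in a group, with log10(summed CPM + 1) of DiD- cells on the horizontal and of DiD+ cells on the vertical axis. Colours and shapes mark the lists, the solid line equal levels and the dashed lines 2-fold. The 14 genes at least 2-fold higher lie above the upper dashed line, none lies below the lower one, and Mgp and Id3 stand apart at the top.

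Partners of the Id proteins and genes of vitamin K-dependent carboxylation were read as further lists. Of 6 partners, 4 reached 1 CPM and none was 2-fold apart, with ratios from -0.59 to 0.83. Of 7 genes of the carboxylation and modification of Gla proteins, 6 reached 1 CPM and none was 2-fold apart, with a median of -0.10. Of all genes, 12.1% were at least 2-fold higher in DiD+ cells and 4.86% lower. Lists this small could thus hold none without differing from all genes. The enzyme gene Ggcx, which carboxylates Mgp's product and was named after its values were seen, had 27.52 CPM in DiD+ against 35.09 CPM in DiD- cells, or -0.34 as a log2 ratio.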

How the data were processed

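Single PyMT-Bo1 cells were grouped by the DiD intensity in their labels (32 DiD+, 28 DiD-). Per the labels and methods, the authors aligned reads with STAR to GRCm38/mm10 with spike-ins and transgenes added. They deposited RSEM estimated counts, unnormalized, for 47729 mouse genes, and a BASiCS normalized signal table, used here as an alternative scaling only. The labels name a NextSeq instrument and the methods a HiSeq. The 10 genes and all lists were chosen with earlier results of these data known.

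Estimated counts were rounded (96.6% of values were whole) and summed per group without spike-ins and transgenes. Each cell held 2276789 to 7794219 counts. TPM used the longest protein-coding transcript of GENCODE M21. A pathway gene was named if 1 CPM or more in either group and 2-fold or more apart, with at most 3 per list and direction. Genes named besides are marked as such. A marker was present at 10 counts. All 60 cells were kept, and doublets were not called. The computation of ratios was checked on simulated counts that held counting error but no spread between cells or mice. That check therefore does not cover the spread of the real cells. Alternatives were other scalings (edgeR 4.0.16, DESeq2 1.42.0), pseudocounts and minimums, thinning of each cell to 2200000 counts, and leaving out cells. Python 3.11.15 and R 4.3.3 were used.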

Additional observations from a re-analysis of the deposited data

How the results depend on the processing

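No paired analysis was possible because the cell numbers pair no cells across the groups. The 2-fold counts of members (5 higher, 0 lower) were 4 to 5 and 0 under all scalings and pseudocounts tried, 6 higher at a 1.5-fold threshold, and 5 to 6 higher and 0 lower with 1 cell left out. The count reached 6 without DiD- cell 26 or 65 (Smad6) or 34 (Bmp4). Without the host-marker wells 1 was lower (Bmp4). The Mgp log2 ratio of 2.06 was 2.03 from BASiCS values, 1.51 with spike-in scaling, 2.04 with TMM, 2.03 with median-of-ratios factors, 2.02 with a pseudocount of 10 CPM, 1.89 without the host-marker wells and 1.88 to 2.16 with 1 cell left out. Spike-in scaling moved the median over all genes from 0.04 to -0.34. Relative to that median Mgp was at 2.02 with all counts summed and 1.85 under spike-in scaling, where 6 members were at least 2-fold above it.

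The pathway list median of 0.55 was 0.64 as the mean of each cell's CPM, 0.62 from BASiCS values, 0.28 with spike-in scaling, 0.54 with TMM, 0.53 with median-of-ratios factors, 0.58 and 0.20 with pseudocounts of 0.1 and 10 CPM, 0.54 without the host-marker wells, 0.54 without DiD+ cell 30 (added after the data were seen), 0.46 with no minimum, 0.52 at 10 CPM and 0.36 (without DiD+ cell 87) to 0.61 with 1 cell left out. The causes of these shifts were not tested. Bmpr2 fell to 0.92 with spike-in scaling and 0.91 with a pseudocount of 10 CPM, and Bmp2 to 1.01 with that pseudocount. Of the other members, Bmp4 changed sign in 35 of 70 alternatives and Id1 in 1 of 70. All 40 alternatives to the shares of cells with a count (thinned cells, or at least 10 counts) stayed within the intervals.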
